A study of Homo sapiens with 8 samples.

Results

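The transcripts described here are those of 4 stress response genes, ATF4, PPP1R15A, DDIT4 and ERO1A, and the data are all 12 rows that carry their names in 4 lists of RNA immunoprecipitation peaks, out of 42083 rows and 6515 genes in all. The genes were chosen by name with earlier results of the same lists known, so their folds and the lists that hold them are given as a description. Rows of different lists counted as 1 site when their exon blocks overlapped by 1 base or more, strand included, and the 12 rows then formed 6 sites. No row bore the older name ERO1L, and no row of another gene's name fell in any of the 6 sites.

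The study asked whether the methyltransferase METTL1 affects which RNAs the protein QKI7 is found on. The cells were HepG2, a human liver cancer line. They carried Cas9 and, from a lentivirus, Flag-tagged QKI7, an isoform of the RNA-binding protein Quaking, so every group overexpressed the protein that was pulled down. One guide group received the control guide sgNS and the other sgMETTL1, the guide used to knock out METTL1, and the cells positive for green fluorescent protein were grown on. Each guide had 2 replicates of input RNA and of RNA pulled down through the Flag tag from UV cross-linked lysates, 8 samples in all. The lists analysed pair each immunoprecipitated (IP) sample with its input, so each guide had 2 lists, and the labels do not say whether replicates were separate cultures.

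ATF4 is the transcription factor at the centre of the integrated stress response. Kinases that sense shortage of amino acids or heme, unfolded protein or viral RNA phosphorylate the initiation factor eIF2. General translation then falls, and ATF4 mRNA, which has short reading frames ahead of its coding sequence, is translated better. ATF4 then drives genes of amino acid supply and redox balance. PPP1R15A (GADD34) brings protein phosphatase 1 to eIF2 and so ends the response. DDIT4 (REDD1) restrains mTORC1 through the TSC complex, and ERO1A is an oxidase that passes disulfide bonds to protein disulfide isomerase in the endoplasmic reticulum. DDIT4 and ERO1A are also known as genes that hypoxia induces.

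The lists held 11562 and 11038 rows with sgNS and 10095 and 9388 with sgMETTL1. The smallest fold in a list was 1.15 and 1.09 with sgNS and 1.11 with each sgMETTL1 replicate, and the number of reads behind a row is not known. METTL1 and its partner WDR4 had no row in any list, so the lists do not check the knockout. The hepatocyte markers SERPINA1, FGB, APOB and HNF4A had a row in all 4 lists. ALB had a row in 1 list, and AFP, APOA1, TTR and TF had none, although a list of bound RNA does not show which genes a cell expresses. Of 6 blood and fibroblast markers, LYZ was listed in all 4 lists and HBB in 1.

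Short promoter stretches are shown because these genes are grouped by shared induction, while the sequence under the peaks was not used here. The 250 bases ahead of each gene's start (RefSeq, GRCh38.p14) were searched on both strands for the cAMP response element TGACGTCA, the C/EBP-ATF element TGATGNAAN and ACGTG, the core of the hypoxia response element. The first listed start was used for ATF4, and all 4 genes had a sequence. Capitals mark the match.

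PPP1R15A, chr19:48872351-48872382, plus strand: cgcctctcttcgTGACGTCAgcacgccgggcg
ATF4, chr22:39520466-39520494, plus strand: gaggagacggtcACGTGgtcgcggcggaa
DDIT4, chr10:72273787-72273815, plus strand: agaacgttgcttACGTGcgcccggagtcc
ERO1A, chr14:52695656-52695684, minus strand: cgggcgccgcggCACGTccacaggctggg

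Only PPP1R15A held TGACGTCA, starting 58 bases before the gene, and 1.77% of the 27305 promoters searched held it. ACGTG was found in the other 3 windows, at 81 bases before ATF4, 125 before DDIT4 and, on the opposite strand, 114 before ERO1A, and 18.7% of all promoters held it. In ATF4 the match was part of CACGTG, which reads the same on both strands. TGATGNAAN was in none of the 4 windows and in 3.18% of all. A match describes the letters and no binding was measured there.

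Each of the 4 genes met the lists in its own way. ERO1A had 1 very strong site in all 4 lists. DDIT4 had 1 site with a fold close to the bottom of the list, in both sgNS lists and in neither sgMETTL1 list. ATF4 and PPP1R15A had weak sites in both sgMETTL1 lists and in neither sgNS list.

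**Figure D1:**
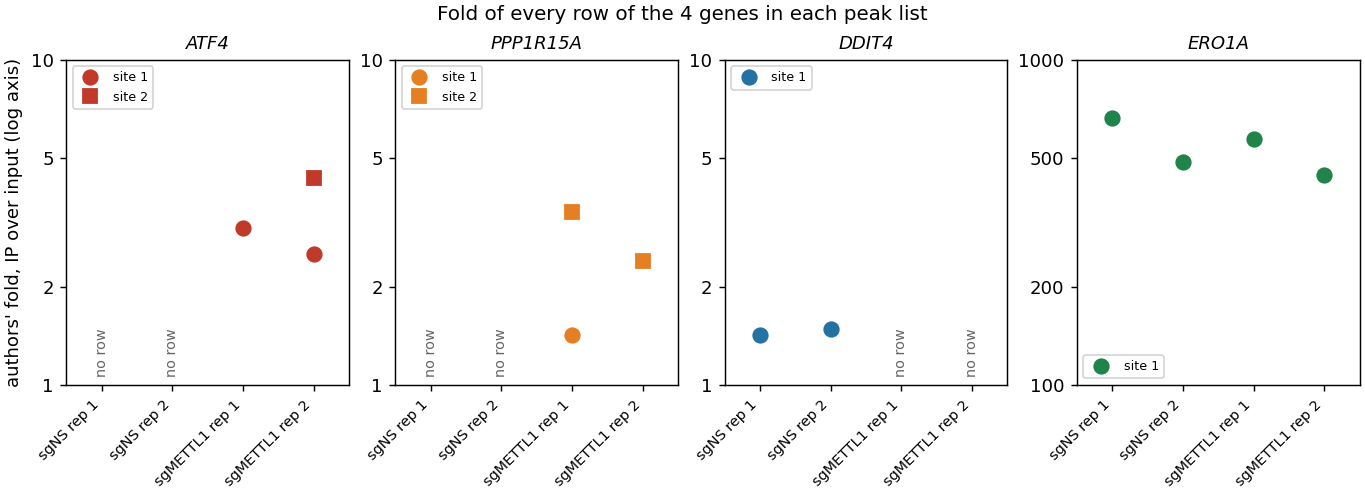
The authors' fold (IP over input, log axis) of every row of ATF4, PPP1R15A, DDIT4 and ERO1A, 1 panel per gene, with 1 column per list and 1 symbol per site; the ERO1A panel has its own scale. ERO1A lies between 442 and 663 in all lists, whereas every row of the other 3 genes lies between 1.42 and 4.32 and is confined to the lists of 1 guide.

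ATF4, on the plus strand of chromosome 22 (GRCh38, 39520559 to 39522686 in RefSeq), had no row with sgNS. With sgMETTL1 its first site, 39520917 to 39521006, was listed at 3.05-fold in replicate 1 and at 2.52-fold in replicate 2, where the row ended at 39520976. Both rows began at the same base. A second site, 39521036 to 39521095, was listed only in replicate 2, at 4.32-fold. The authors' p-values were 0.00024 and 0.0025 for the first site and 0.00051 for the second. These were among the weakest rows of their lists: on a scale where 0 is the strongest row and 100 the weakest, the first site stood at 83.3 and 99.2 by p, and the second at 89.4. By fold they stood nearer the middle, at 68.9 and 78.1 for the first site and 51.2 for the second.

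As a share of the gene's span, the place of the ATF4 rows was uncommon for these lists. The first site began 358 bases after the start of the gene's 2128-base span and the second 477 bases after it. The centres lay at 18.9% and 18.2% of the span for the first site and at 23.8% for the second. Of all rows of the same list, 1.49%, 1.51% and 1.87% had a centre nearer the 5' end of their gene, and the middle row of each list lay at 96.6 to 96.7% of its gene's span. Spans include introns and differ widely in length (2128 bases for ATF4, 55644 for ERO1A), so these shares are not like for like between short and long genes. Which transcript part a row covers was not examined. RefSeq lists 4 ATF4 pseudogenes, none of which had a row, so how reads shared with them were counted is not known.

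PPP1R15A, on the plus strand of chromosome 19 (48872421 to 48876058), likewise had no row with sgNS. Its site near the 3' end of the gene was listed with sgMETTL1 at 3.41-fold in replicate 1 (48875883 to 48876032) and 2.41-fold in replicate 2 (48875854 to 48875943). The authors' p was 3.8e-05 and 0.0001. The rows ended 26 and 115 bases before the end of the gene. A second site in the middle of the gene, 48874394 to 48874543, was listed in replicate 1 only, at 1.42-fold with a p of 0.00072. The 3' site stood at 72.6 and 79.2 by p and at 62.7 and 80.5 by fold on the 0 to 100 scale, and the middle site at 92 by p and 98.7 by fold. The 3' site was thus stronger by p than the ATF4 site in both lists, and both sites were among the weaker rows.

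**Figure D2:**
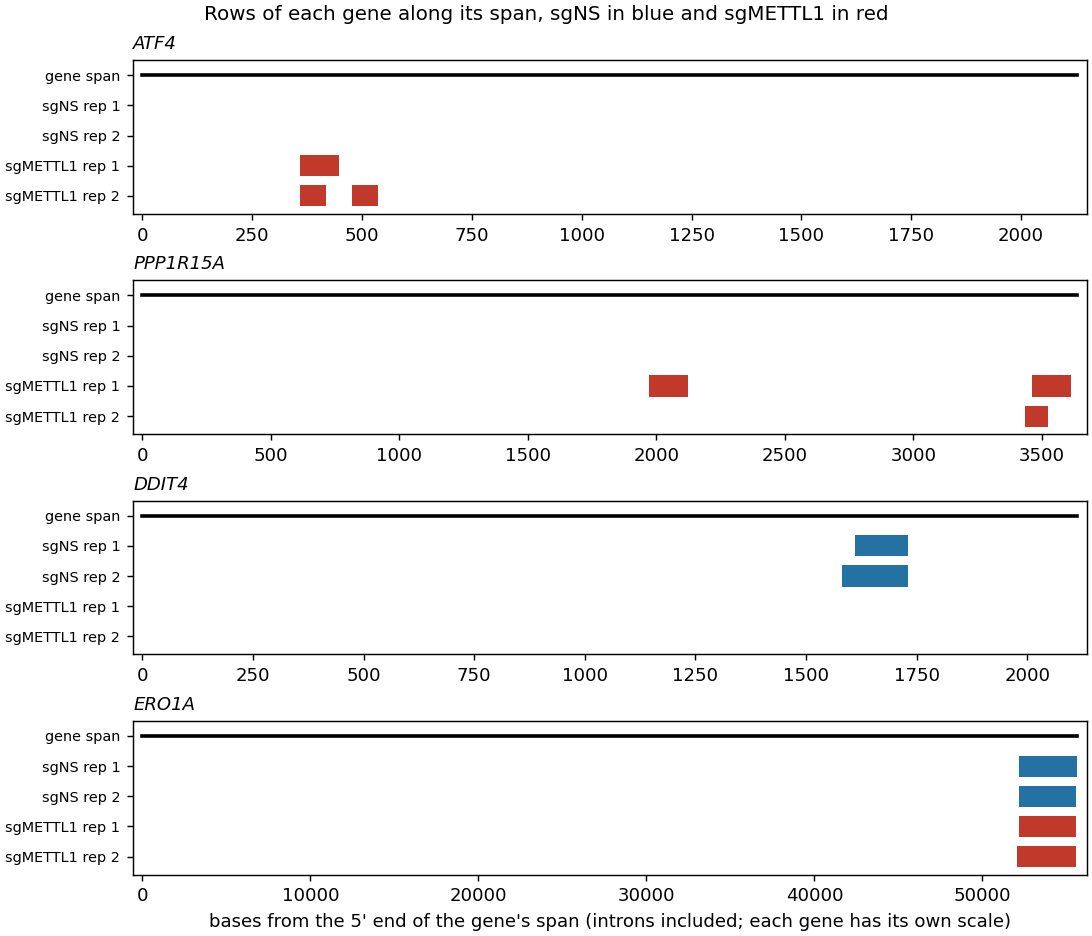
Rows of the 4 genes as bars along the gene's span, in bases from its 5' end, 1 panel per gene with its own scale and 1 line per list (blue sgNS, red sgMETTL1); the black line is the RefSeq span, introns included. The ATF4 rows lie in the first 537 bases of the gene, the DDIT4 rows end 383 bases before its end, and the ERO1A rows and the 3' rows of PPP1R15A reach to within 26 to 115 bases of the end.

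DDIT4, on the plus strand of chromosome 10 (72273924 to 72276036), was listed with sgNS at 1.42-fold in replicate 1 (72275534 to 72275653) and 1.49-fold in replicate 2 (72275505 to 72275653). Both rows ended at the same base, 383 bases before the end of the gene. No row was listed with sgMETTL1. The fold was among the smallest of either list, at 98.3 and 97.1 on the 0 to 100 scale, yet the p-values of 4.3e-10 and 2.5e-14 put the site at 53 and 44.8, in the middle of the lists. PPP1R15A's middle site had the same fold of 1.42 with a p of 0.00072. Rows at 1.49-fold or less numbered 219 of 10095 and 222 of 9388 in the sgMETTL1 lists. In the sgNS lists they numbered 319 of 11562 and 326 of 11038. Why DDIT4 had no row with sgMETTL1 was not tested.

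ERO1A, on the minus strand of chromosome 14 (52639915 to 52695558), had 1 site, which covered the last part of the gene as a single block. The fold stood at 663 and 485 in the sgNS lists, against 571 and 442 in the sgMETTL1 lists. The 2 guides overlapped, and in both the first replicate was the higher one. The blocks were 3415 and 3385 bases long with sgNS and 3355 and 3505 bases with sgMETTL1. In 3 lists they began at the same upstream base, 52643359, and in replicate 2 of sgMETTL1 at 52643479. At the other side they ended 30, 60, 90 and 60 bases before the 3' end of the gene. Few rows were as wide: 0.199 and 0.172% of rows with sgNS and 0.158 and 0.192% with sgMETTL1, most of them joined from several blocks.

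By fold ERO1A was at rank 2 and 3 of all rows with sgNS and at rank 2 and 6 with sgMETTL1. By p, which is listed as 0 for all 4 rows and was therefore ranked by its logarithm, it was gene 4 and 5 with sgNS and gene 5 and 4 with sgMETTL1. The -log10 p itself was 23300 and 20500 in the sgNS lists, against 11400 and 12500 in the sgMETTL1 lists. The guides did not overlap in that value, while the ranks did. Over all rows, a p listed as 0 was also rarer with sgMETTL1. It was found in 270 of 10095 and 288 of 9388 rows, against 621 of 11562 and 565 of 11038 with sgNS. The lists give no depth, and a p-value moves with depth. The part of depth in the ERO1A difference was not tested. The 4 genes nearest to ERO1A in the percentile rank of the strongest fold over the 4 lists, out of 4147, were HIPK2, IGF2, DVL3 and MEIOC, with root mean square differences of 0.0318, 0.0528, 0.0622 and 0.102 percentile points.

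**Figure D3:**
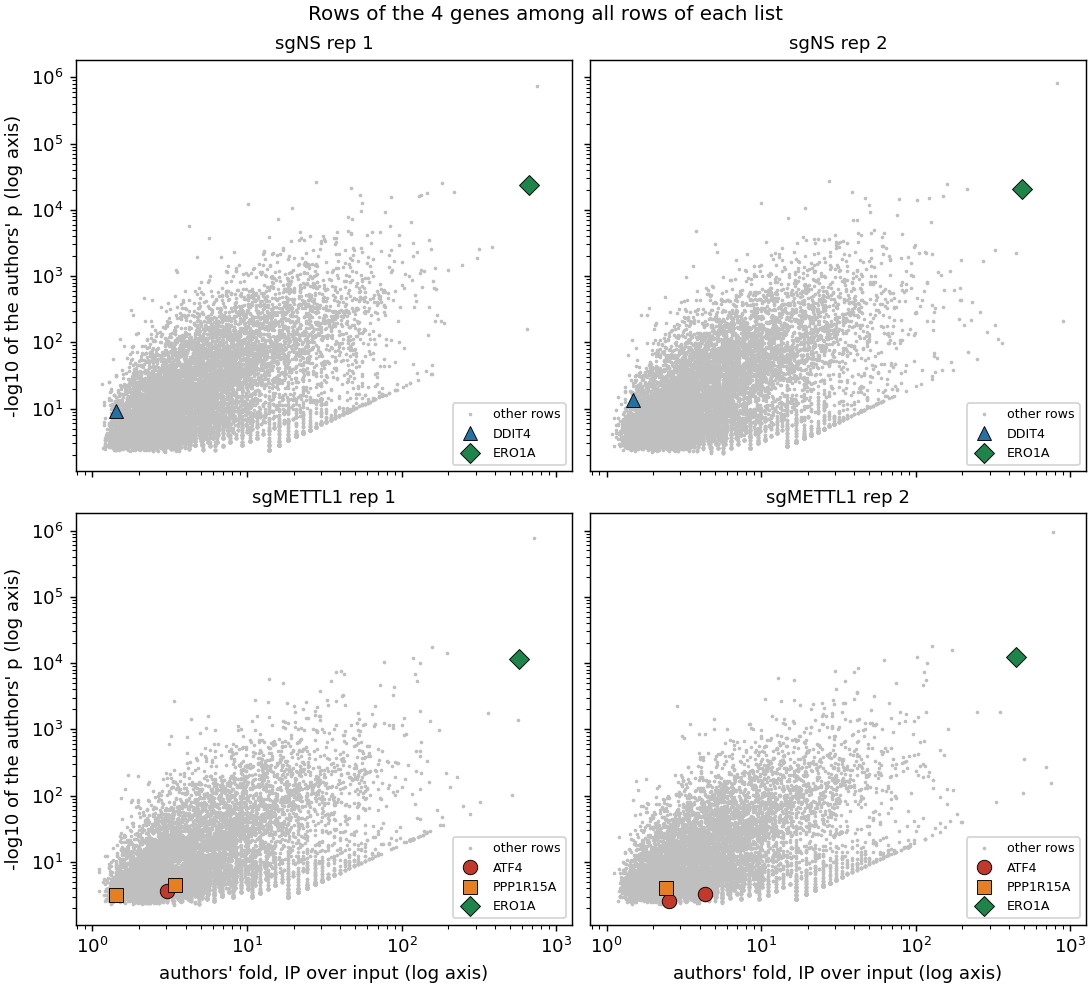
The authors' fold (x, log axis) against -log10 of the authors' p (y, log axis) for every row, 1 panel per list; grey points are the other rows and coloured symbols the rows of the 4 genes. ERO1A lies at the upper right of every panel, DDIT4 at the left edge at middle height (-log10 p of 9.37 and 13.6), and ATF4 and PPP1R15A near the floor of the sgMETTL1 panels (2.6 to 4.42).

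How the rank of the ERO1A site compared between guides was taken from a fit over the whole table, in ranks because nothing says that a fold means the same in each list. The strongest fold of each gene was ranked within its list and turned into a normal score, and limma compared the 2 sgMETTL1 with the 2 sgNS lists over the 4148 genes found in all of them. The score of ERO1A was 3.46 and 3.31 in the sgNS lists, against 3.44 and 3.06 in the sgMETTL1 lists, a difference of -0.14 (SE 0.213, 95% interval -0.70 to 0.42, limma's adjusted p = 0.813). By site, over the 5895 sites of all 4 lists, it was -0.17 (SE 0.211, 95% interval -0.71 to 0.37, limma's adjusted p = 0.695). The median difference over all genes was -0.11 and over all sites -0.22, so ERO1A lay close to the general shift. When ranks were taken only among the features of all 4 lists, a choice made after the first results were seen, these medians were both -0.02 and ERO1A stood at -0.12 by gene and -0.11 by site (limma's adjusted p = 0.882 and 0.884). Without replicate 2 of sgMETTL1 the sign turned, to 0.05 by gene and 0.02 by site.

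On the log2 of the authors' folds, which assumes a shared scale, the mean fold of ERO1A went from 574 ± 126 (SD, n = 2) to 506 ± 91.2 (SD, n = 2). The log2 difference was -0.17 (95% interval -0.99 to 0.64, limma's adjusted p = 0.81), where the median over all genes was -0.24. limma called 0 of the 4148 genes and 0 of the 5895 sites at an FDR of 5% (background 0%). At an unadjusted p under 0.05 there were 476 genes (11.5%) and 976 sites (16.6%). No difference was thus detected with 2 lists against 2. By rank ERO1A already stood near the top of each list, so a rise had little room to show in the score. The intervals otherwise show how large a difference could have been missed, given replicates that may not be separate cultures.

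For the other 3 genes only presence can be compared. Of all 6515 genes, 302 (4.64%) were lost with sgMETTL1, that is, both sgNS lists held a row and no sgMETTL1 list did, as for DDIT4. Another 99 (1.52%) were gained, the reverse, as for ATF4 and PPP1R15A. These totals moved with the length of the lists: with 9388 rows in each, 200 genes were lost and 153 gained, and with 4694 rows 127 were lost and 127 gained. Leaving out any 1 of the 4 lists gave 504 to 647 lost and 166 to 333 gained. The members were chosen with this known, so their count is no result. With 2 lists against 2 an exact test cannot go below p = 0.33. Among the 302 genes DDIT4 was number 26 by p and number 289 by fold: it joined one of the better p-values with one of the smallest folds. Among the 99 genes PPP1R15A was number 41 by p and 65 by fold, and ATF4 was number 78 by p and, by a strongest fold that came from different sites in the 2 lists, number 52.

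By position, 1075 of 14330 sites (7.5%) were lost with sgMETTL1 and 174 (1.21%) gained. How often a site is missing from the other guide depended on how strong it was. Of 8369 sites in both sgNS lists 12.8% were in neither sgMETTL1 list, but in the stretch of the p scale that holds DDIT4 (40 to 50, with DDIT4 at a mean of 48.9) it was 75 of 961 sites, or 7.8%, and in the strongest stretch (0 to 10), which holds ERO1A, 0 of 1077. Of 6362 sites in both sgMETTL1 lists 2.73% were in neither sgNS list. In the stretch that holds the 3' site of PPP1R15A (70 to 80, mean 75.9) it was 39 of 477 sites, or 8.18%, and in that of ATF4 (90 to 100, mean 91.2) 19 of 70, or 27.1%. By p, an ATF4 row seen with 1 guide only therefore lies where such rows were common among sgMETTL1 sites. The DDIT4 site lies by p where they were less so among sgNS sites, but by fold it stood near the bottom, at 98.3 and 97.1. Both shares describe these lists and were not tested, and none was taken by fold.

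**Figure D4:**
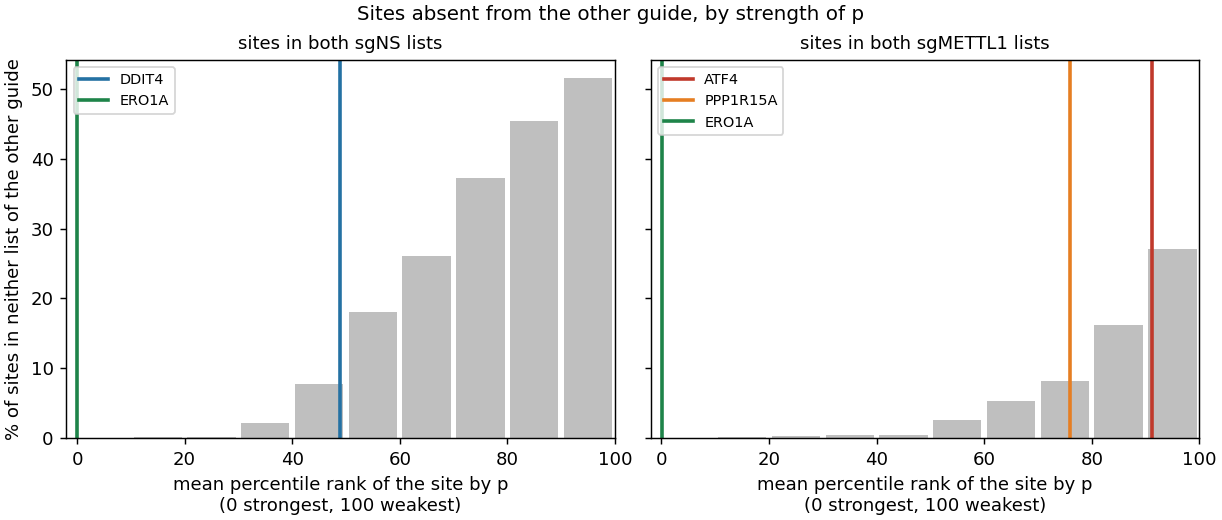
Share of sites found in both lists of a guide that were in neither list of the other guide (y, percent, grey bars), by mean percentile rank by p (x, 0 strongest, 100 weakest, in steps of 10); coloured lines mark the members. The share rises towards weak sites, from 0% to 51.6% for sgNS sites on the left and from 0% to 27.1% for sgMETTL1 sites on the right; DDIT4 stands at 48.9, PPP1R15A at 75.9 and ATF4 at 91.2.

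Which genes were most like them depended on their kind. Among the genes listed only with sgNS, those nearest to DDIT4 in the percentile of the strongest fold over the 2 sgNS lists were MCFD2 and TNFAIP3 (both 1.4 and 1.47-fold), MGME1 and ARPC2. Among the genes listed only with sgMETTL1, those nearest to ATF4 were C22orf46P, IGIP, KIF16B and SVIL, and those nearest to PPP1R15A were CDK11A, VMA22, ZNF276 and TRIM41.

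How far the 4 genes stand for their pathways was read from 8 gene lists with 86 different genes. Of the 82 that are not members, 49 had a row in some list, 45 in both sgNS lists (54.9%) and 40 in both sgMETTL1 lists (48.8%), where 24.7% and 21.8% of all protein-coding genes did; that background does not take account of expression. Of these 49 genes with a row, 4 were lost with sgMETTL1 and none was gained. Of all 6515 genes with a row, 302 (4.64%) were lost and 99 (1.52%) gained. The difference was not tested. The 4 were EIF2S1, which encodes the eIF2 subunit that is phosphorylated (6.94 and 6.89-fold with sgNS), EDEM1 and ERN1 of the unfolded protein response (3.17 and 2.29-fold, 2 and 2.82-fold), and the prolyl hydroxylase gene EGLN3 (10.8 and 21.1-fold).

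Among the eIF2 kinases all 4 were in all 4 lists. EIF2AK1, the heme-regulated kinase, was listed at 64.5 and 51.4-fold with sgNS and at 93 and 41.7-fold with sgMETTL1, and EIF2AK3 (PERK) at 30.1 and 27.5-fold against 30.5 and 22.6-fold. Both overlapped between the guides. Of the 8 subunits of eIF2 and eIF2B, EIF2S1 and EIF2S3 had rows. The constitutive counterpart of PPP1R15A, PPP1R15B, was in all 4 lists at 8.84 and 7.94-fold with sgNS and 6.4 and 4.89-fold with sgMETTL1. The catalytic subunit gene PPP1CB was too, at 21.8 and 17.3-fold against 12 and 13.4-fold. PPP1R15A itself had folds below both.

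Of 10 stress transcription factors 7 had a row, among them ATF4 in the sgMETTL1 lists only. CREB3L2, a membrane-bound factor, was at 9.26 and 8.45-fold with sgNS and 2.64 and 2.66-fold with sgMETTL1, and its score differed by -1.27 (SE 0.17, adjusted p = 0.234 by limma). In 3 lists the strongest row came from the same site, which stood at 9.26 and 8.45-fold with sgNS and at 1.88 and 2.66-fold with sgMETTL1. Its -log10 p was 21.2 and 8.33 against 6.44 and 8.21, so replicate 2 hardly differed by p. The 2.64-fold row of sgMETTL1 replicate 1 came from another site. The strongest rows of that site were at 2.88 and 3.31-fold with sgNS and 2.64 and 2.54-fold with sgMETTL1. One more site in all 4 lists stood at 2.66 and 2.23-fold against 1.91 and 1.84-fold. NFE2L2 stood at 27.4-fold in replicate 1 of sgMETTL1 and at 4.16 to 5.49-fold in the other 3 lists. CEBPG, a partner of ATF4, was at 9.15 and 4.77-fold with sgNS and 2.82 and 3.25-fold with sgMETTL1 (adjusted p = 0.419 by limma).

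Of 20 ATF4 target genes 11 had a row, and 10 were in all 4 lists; DDIT4 was the other one. The strongest were PSAT1, of serine synthesis (15.9 and 15-fold with sgNS, 11.2 and 10.6-fold with sgMETTL1), the amino acid transporter gene SLC7A5 (11.1 and 10-fold, 5.31 and 6.6-fold), VLDLR and MTHFD2. DDIT4 had the lowest fold of the 11 in both sgNS lists. Of the 10 genes tested 8 had a lower score with sgMETTL1 and 2 a higher one, with a median of -0.22 against -0.11 over all 4148 genes (7 and 3, and -0.12 against -0.02, with ranks among the genes of all 4 lists). limma called 0 in either direction, and 1 had an unadjusted p under 0.05.

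Of 15 genes of folding in the endoplasmic reticulum 10 had a row. Next to ERO1A the strongest was SEL1L, of the degradation complex, at 43.3 and 34.5-fold with sgNS and 51.9 and 32.9-fold with sgMETTL1. ERO1B, the paralogue of ERO1A, was listed in the second replicate of each guide only, at 5.63-fold with sgNS and 25-fold with sgMETTL1 and from different sites. The chaperone gene HSPA5 was listed in 1 list (3.93-fold), DNAJC3 in all 4 (6.12 to 9.16-fold).

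The TSC and mTORC1 list, which holds DDIT4, had 5 of 11 genes with a row. SESN3, a stress-induced inhibitor of mTORC1, approached the fold of ERO1A with sgNS, at 650 and 323-fold, and was at 82.6 and 112-fold with sgMETTL1 (score difference -0.97, SE 0.232, limma's adjusted p = 0.34). By p the same SESN3 rows overlapped between the guides. Their -log10 p reached 161 and 180 for sgNS, against 147 and 190 for sgMETTL1. ERO1A had far larger values, from 11400 to 23300, so SESN3 came near it by fold only. The SESN3 folds came from the strongest rows of 1 site. Its other rows stood at 16.7 to 55.6-fold with sgNS and 10.2 to 51.8-fold with sgMETTL1. Another SESN3 site in all 4 lists went the other way, at 21.4 and 16.5-fold with sgNS and 57.9 and 25-fold with sgMETTL1. TSC1 was at 2.38 and 2.05-fold against 3.05 and 4.3-fold (0.74, SE 0.238, limma's adjusted p = 0.394), partly from different sites. RHEB and SESN1 were also in all 4 lists. In the hypoxia list 13 of 17 genes had a row, all 13 in both sgNS lists and 9 in both sgMETTL1 lists. Of all 6515 genes 4969 (76.3%) were in both sgNS lists and 4399 (67.5%) in both sgMETTL1 lists. HIF1A was at 26.1 and 23.4-fold with sgNS and 18.1 and 27.2-fold with sgMETTL1, EPAS1 at 24.5 and 24.3-fold against 22.5 and 19.7-fold, and VHL at 21.9 and 30.8-fold against 17.5 and 19.3-fold. ERO1A was above HIF1A, EPAS1 and VHL, and DDIT4 was below these but not the lowest of the hypoxia list in sgNS replicate 2.

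Over the 39 pathway genes other than ERO1A that were in all 4 lists, 27 had a lower and 12 a higher score with sgMETTL1, with a median of -0.12 against -0.11 over all genes. All 4148 genes leaned the same way, with 2616 lower and 1532 higher. With ranks among the genes of all 4 lists it was 23 and 16, against 2166 and 1982 over all genes, with a median of -0.04 against -0.02. limma called 0 of the 39 either way. Its unadjusted p was under 0.05 for 6 of the 39 and for 476 (11.5%) of all 4148 genes. With ranks among the genes of all 4 lists it was 7 of the 39 and 407 of the 4148.

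**Figure D5:**
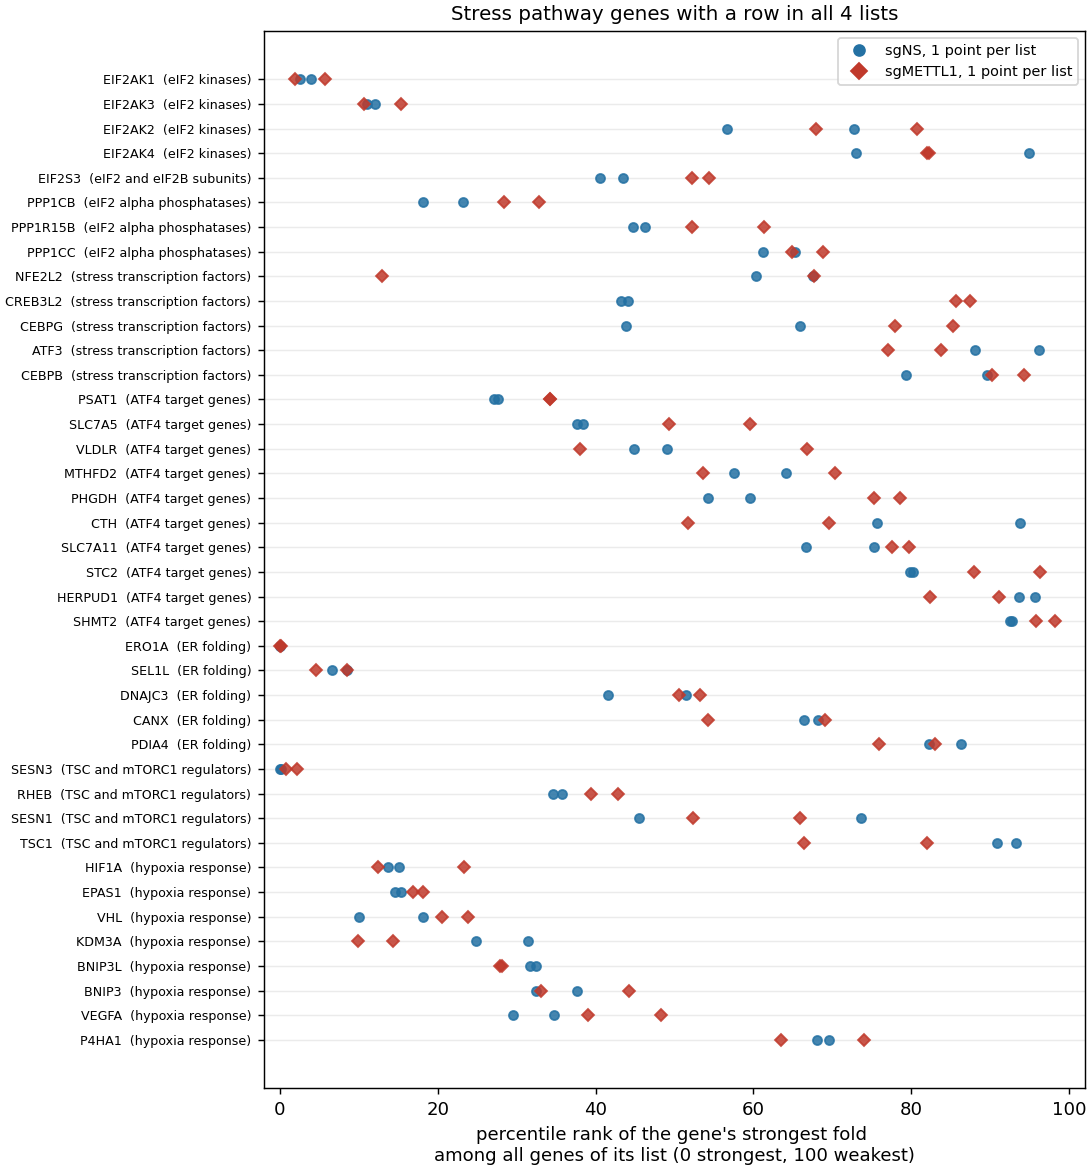
Percentile rank of each gene's strongest fold (x, 0 strongest, 100 weakest, among all genes of its list) for the 40 pathway genes with a row in all 4 lists, 1 line per gene, blue circles for the 2 sgNS and red diamonds for the 2 sgMETTL1 lists; each gene is drawn once, under the first list that holds it. ERO1A lies at the left edge in all lists (0.0359 to 0.121), next to SESN3, and CREB3L2 shows separate groups (43.2 and 44.1 against 87.4 and 85.6). So do others, among them SLC7A5 (37.6 and 38.4 against 59.5 and 49.3) and, the other way, TSC1 (90.8 and 93.2 against 82 and 66.4). limma called none of them.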

How the data were processed

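Input and IP samples, 2 of each per guide, were grouped by title. The submitters' processing notes name GRCh38 and STAR; the peak caller, its threshold and its scaling were not given in the sources used. For each IP and input pair the authors deposited a list of peaks. Each peak has a deposited fold ratio of IP over input, a p-value, and the base-10 logarithm of that p-value, which was treated as a score. Folds and p-values are the authors' own, and ranks by p used the logarithm.

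Names were matched to RefSeq (GRCh38.p14): 6206 of 6520 were current symbols, and updating older ones left 6515 genes. Coordinates are 1-based. Normal scores of ranks were compared with limma 3.58.1 in R 4.3.3 (two-sided, Benjamini-Hochberg FDR of 5% over all genes or sites). The fit was run first on simulated data with even noise and large shifts in 200 features. It found all 200 by gene and by site, and called 10 unchanged genes and 6 unchanged sites. Real changes may be smaller, so this does not show what could be detected here. As replicates may not be separate cultures, a p-value reflects only how far these samples vary, perhaps technically. Python 3.11.15, pandas 2.3.3, numpy 2.4.6, scipy 1.17.1 and matplotlib 3.10.9 were used.

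The members, gene lists and tests were chosen with earlier results of these data known. Pathway genes were named by rule: up to 4 per list with the best mean rank of the strongest fold, every gene lost or gained, and the 4 genes most like each member. Named outside that rule, after their values were seen, was HSPA5. The steps of the p scale, the promoter motifs and the site-by-site look at CREB3L2, SESN3 and TSC1 were also chosen after values were seen. The results were also computed with log2 folds, ranks by p, the mean over a gene's rows, a replicate block, 50% reciprocal overlap, equal numbers of rows, a stricter fold minimum, and leaving out each list. One was added after the first results: because lists differ in length, ranks were also taken among the features of all 4 lists only. One of the hepatocyte marker genes is not reported here.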

Additional observations from a re-analysis of the deposited data

How the results depend on the processing

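Counts of genes and sites listed with only one guide moved with the number of rows used. With equal numbers of rows by p, as many as in the smallest list (9388), 200 genes were lost and 153 gained. By site 704 were lost and 240 gained. DDIT4 stayed lost, and ATF4 and PPP1R15A stayed gained. With 4694 rows per list 127 genes were lost and 127 gained, so the excess of losses was gone for genes, and 290 sites were lost and 160 gained; ATF4, PPP1R15A and DDIT4 had no row in any list. When a row needed 2 times the smallest fold of its list, DDIT4 had no row, while ATF4 and PPP1R15A were still in both sgMETTL1 lists. With 50% reciprocal overlap 1365 sites were lost and 566 gained. Leaving out 1 list gave 504 to 647 genes lost, 166 to 333 gained, 1648 to 2736 sites lost and 311 to 1161 gained, since fewer lists then had to hold or lack a row. limma called 0 genes and 0 sites under every alternative run, with smallest adjusted p-values from 0.109 to 0.551.

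Ranking only among the features of all 4 lists, which was chosen after seeing the data, moved the sites at an unadjusted p under 0.05 from 976 to 609 and the genes from 476 to 407. The ERO1A difference by gene went from -0.32 to 0.05 and by site from -0.35 to 0.02 when 1 list was left out, where the lone list of a guide is assumed to vary like the others. The sign turned without replicate 2 of sgMETTL1 (limma's adjusted p = 0.949 by gene and 0.973 by site), and the cause was not tested. It kept its sign in the other alternatives run. With the replicate number as a block (replicate block) the difference was -0.14 by gene (limma's adjusted p = 0.847) and -0.17 by site (limma's adjusted p = 0.69). Same-numbered lists did not deviate together (correlation 0.00 over genes and 0.01 over sites), so the numbers were not taken as pairs. Depth is not given in the lists, so no limit for an unlisted row can be stated.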
